A study of Mus musculus with 2 samples.

Results

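Stromal and skeletal stem cell surface markers were measured in *Sox9* GFP-high chondrospheres, the colonies that single chondrocytes form in methylcellulose. The markers are 10 genes for proteins that antibodies detect on living cells: *Nt5e* (CD73), *Eng* (CD105), *Alcam* (CD166), *Mcam* (CD146), *Cd200*, *Pdpn* (podoplanin), *Thy1* (CD90), *Ly6a* (Sca-1), *Lepr* and *Ngfr* (CD271). They were taken by gene symbol, and all 10 were among the 23628 genes listed. The samples are 2 RNA-sequencing libraries of 1 condition, labelled MC-SOX9-GFPhi and named here replicate 1 and replicate 2. Their cells came from femoral heads of mouse pups at postnatal day 7 of a line homozygous for an enhanced GFP reporter behind an internal ribosome entry site in the *Sox9* gene. By the study's methods, live cells lacking CD31, Ter119 and CD45 were sorted for high GFP and grown for weeks in methylcellulose under low oxygen, with FGF2, BMP4, IGF1, LIF, TGF-β1 and serum in the medium. The labels do not tie each library to a pup, so the spread between replicates may include technical error, and a bulk library pools many colonies. With 1 condition there was no comparison between groups and no test, and values are set beside the spread of the 2 libraries.

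Surface proteins of this kind are used to isolate skeletal progenitors by flow cytometry. Cultured mesenchymal stromal cells are by convention positive for CD73, CD90 and CD105. The mouse skeletal stem cell gate requires integrin αV and CD200 and leaves out cells with CD105, THY1, 6C3 (the product of *Enpep*) or TIE2 (of *Tek*), whereas the human gate requires podoplanin, CD73 and CD164 and leaves out CD146. PDGFRα with Sca-1 marks another mouse mesenchymal fraction, leptin receptor and CD271 mark marrow stroma, and CD105 with CD166 has been used for progenitors in articular cartilage. These gates read protein on single cells, and the values here are RNA of whole cultures. Which markers lay on the same cell was therefore not measured, and for every gene below fewer cells with the transcript and less RNA per cell cannot be told apart.

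The marker genes ranged from one of the most abundant transcripts to none. *Nt5e* stood at 778 ± 304 CPM, counts scaled to a common library total (SD, n = 2), rank 88 of all genes by mean. *Eng* was the other marker with at least 10 CPM in both libraries, and *Alcam* exceeded that level in replicate 2 alone. *Ly6a*, *Mcam*, *Cd200* and *Pdpn* lay between 1 and 10 CPM in both. *Thy1* and *Lepr* were each under the detection level in 1 library, and *Ngfr* was listed at 0 in both. The detection level was set at 3 reads, which corresponds to 0.0693 CPM in replicate 1 against 0.0712 CPM in replicate 2. In all, 7 of the 10 markers reached it in both libraries, against 68.5% of all genes. At least 1 CPM in both was reached by 6 markers, against 50.3% of all genes, and at least 10 CPM by 2 markers, against 30.8%. The median of the markers was 3.42 CPM and that of all genes 1.63 CPM.

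**Figure D1:**
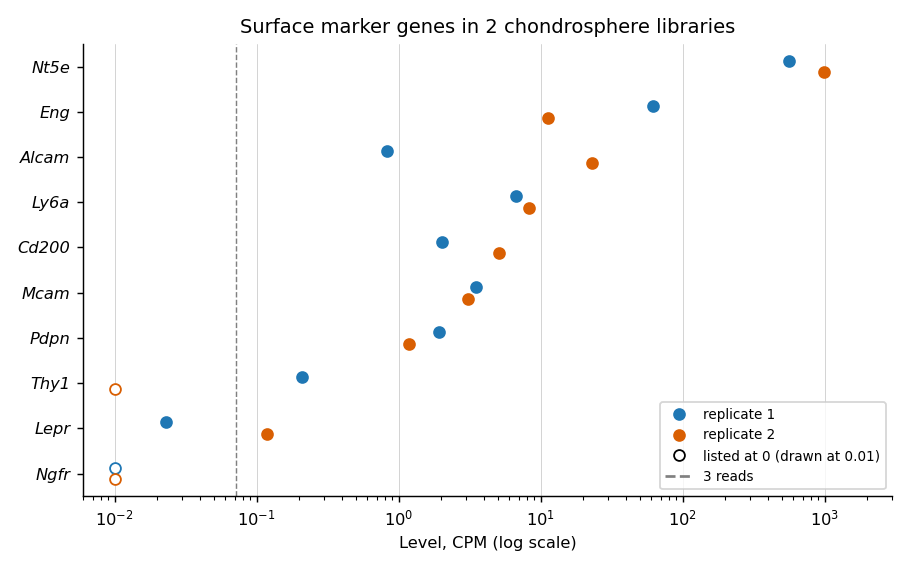
Level of each surface marker gene in CPM on a log scale, with 1 point per library and open points for genes listed at 0. *Nt5e* lies at 564 and 993 CPM, *Eng* and *Alcam* have their points farthest apart among the genes that reach the dashed line of 3 reads in both libraries, and *Ngfr* is open in both.

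The windows around the transcription start of 4 markers are printed because these genes mark the ends of the pattern: *Nt5e* is the most abundant, *Alcam* and *Eng* differed most between the libraries and in opposite directions, and *Ngfr* was not detected. Each is the 300 bases of the RefSeq promoter table on GRCm38.p6, from 250 before to 50 after the annotated start, written 5′ to 3′ on the gene's strand. The RefSeq start can differ from the gene bounds printed below, which are from GENCODE. By those bounds the *Nt5e* and *Alcam* windows lie wholly inside the gene. Capitals mark the core of the hypoxia response element, searched as ACGTG or GCGTG on both strands, since the cultures were kept under low oxygen.

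Nt5e, chr9:88327359-88327658, plus strand: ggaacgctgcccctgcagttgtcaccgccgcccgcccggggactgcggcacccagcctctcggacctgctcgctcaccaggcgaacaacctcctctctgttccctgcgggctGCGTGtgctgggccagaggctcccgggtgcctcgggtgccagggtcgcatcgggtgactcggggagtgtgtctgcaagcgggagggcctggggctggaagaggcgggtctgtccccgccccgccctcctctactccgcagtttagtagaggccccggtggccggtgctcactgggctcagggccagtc

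Alcam, chr16:52453032-52453331, minus strand: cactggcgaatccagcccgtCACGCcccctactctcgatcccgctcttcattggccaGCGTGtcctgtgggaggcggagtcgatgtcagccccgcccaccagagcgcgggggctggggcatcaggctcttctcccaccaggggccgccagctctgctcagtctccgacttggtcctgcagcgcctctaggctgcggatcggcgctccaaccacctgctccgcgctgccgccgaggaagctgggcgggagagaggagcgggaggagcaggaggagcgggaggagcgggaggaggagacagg

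Eng, chr2:32646345-32646644, plus strand: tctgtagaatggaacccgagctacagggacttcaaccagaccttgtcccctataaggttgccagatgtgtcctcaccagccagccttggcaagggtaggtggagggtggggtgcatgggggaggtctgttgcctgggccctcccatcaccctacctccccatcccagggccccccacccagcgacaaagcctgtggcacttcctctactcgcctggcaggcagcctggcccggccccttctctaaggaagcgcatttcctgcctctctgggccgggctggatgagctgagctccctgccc

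Ngfr, chr11:95587649-95587948, minus strand: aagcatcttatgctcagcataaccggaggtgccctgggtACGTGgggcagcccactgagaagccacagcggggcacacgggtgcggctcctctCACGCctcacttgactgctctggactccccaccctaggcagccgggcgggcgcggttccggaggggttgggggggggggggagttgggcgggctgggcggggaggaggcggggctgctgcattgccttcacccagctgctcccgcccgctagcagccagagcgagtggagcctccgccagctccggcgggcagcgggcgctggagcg

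The core was found 1 time in the *Nt5e* window, 2 times in that of *Alcam*, 2 times in that of *Ngfr*, and not in that of *Eng*. Of all 32851 windows of this length, 43.8% held it, so its presence is common, and a match is a description of letters and not of binding. The *Nt5e* and *Ngfr* windows each held 23 CG dinucleotides, a number reached by 21.5% of all windows. Any link between the number of CG dinucleotides and the level of a gene was not tested. The *Eng* window held 6 and the *Alcam* window 25, against a median of 7 over all windows. Of the other markers, *Cd200*, *Lepr*, *Mcam* and *Pdpn* had windows in the table, and *Ly6a* and *Thy1* did not.

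*Nt5e* encodes CD73, the enzyme held to the membrane by a lipid anchor that turns extracellular AMP into adenosine. It lies on chromosome 9 of GRCm38 from 88327197 to 88372092, with 8602 exonic bases. Its level was 564 CPM in replicate 1 against 993 CPM in replicate 2, or about 24393 and 41860 reads by the depth estimated below. It was well measured and high in both libraries, ranking 112 in the first and 71 in the second. It made up 88.0% of the summed CPM of all 10 markers in replicate 1, and 993 of 1045 CPM in replicate 2. Levels of different genes were compared per kilobase of exons, because long transcripts collect more reads. On that scale *Nt5e* had 65.5 and 115 CPM per kb, and exceeded *Eng*, the next marker by mean, by a log2 ratio of 2.11 in replicate 1 and 5.38 in replicate 2, a mean of 3.74 that was larger than its SD of 2.31. Against *Itgb1*, the β1 integrin chain that nearly all adherent cells carry, the log2 ratio of *Nt5e* per kb was -0.61 and -0.69. When length was taken from the longest coding transcript it was 0.40 and 0.32, so the order of these 2 genes depends on the length used. The log2 ratio of *Nt5e* to *Sox9* per kb was 0.10 and 0.78 by exonic length, and 1.21 and 1.88 by the longest coding transcript.

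The genes that make, carry or sense adenosine were uneven in level. Of 9 such genes, 5 reached 3 reads in both libraries and 2 exceeded 10 CPM. These were *Enpp1*, a membrane enzyme that splits ATP into AMP and pyrophosphate, with 307 CPM in replicate 1 against 609 CPM in replicate 2, and *Slc29a1*, an equilibrative nucleoside transporter, with 277 and 674 CPM. Both were high in both libraries, as was *Nt5e*. *Entpd1* (CD39), the ectonucleotidase paired with CD73 on immune cells, was listed at 0 in both, and *Entpd2* had 0.508 and 0.320 CPM. Among the adenosine receptors, *Adora2b* and *Adora3* were listed at 0 in both libraries and *Adora2a* had 0 and 0.332 CPM. *Adora1* had 2.12 CPM in replicate 1 against 0.451 CPM in replicate 2. *Ada*, which removes adenosine, had 0.970 and 2.35 CPM.

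*Eng* encodes endoglin, a co-receptor for ligands of the TGF-β and BMP families that is best known from endothelium. It lies on chromosome 2 from 32646595 to 32682669, and its exons share 61 bases with *Fpgs* on the opposite strand. Its level was 61.6 CPM in replicate 1 against 11.2 CPM in replicate 2, about 2667 and 474 reads, so it was present in both but far lower in the second. Its mean of 36.4 CPM was about as large as its SD of 35.6 (n = 2). The endothelial marker list was nearly empty: 2 of its 8 genes reached 3 reads in both libraries, 6 were listed at 0 in both, and the list summed to 0.370 CPM in replicate 1 against 0.261 CPM in replicate 2. *Pecam1*, the gene of the CD31 antigen that the sort depleted, had 0.231 and 0.166 CPM, and *Cdh5*, *Kdr* and *Tek* were at 0. *Eng* exceeded *Pecam1* per kb by log2 ratios of 8.68 and 6.70.

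Among the ligands, receptors and targets around endoglin, 11 of 13 genes were listed, since *Gdf2* and *Bmp10* were not, and 10 of the 11 exceeded 1 CPM in both libraries. *Tgfbr2*, the type II receptor for TGF-β, had 73.7 CPM in replicate 1 against 61.3 CPM in replicate 2. *Bmpr2* had 57.5 and 129 CPM, and *Id1*, a common target of BMP signalling, had 46.5 and 114 CPM. The exception was *Acvrl1* (ALK1), the type I receptor with which endoglin acts in endothelium, listed at 0 in both. None of the 10 was more than 2-fold apart in the comparison of the libraries given below.

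*Alcam* encodes CD166, an immunoglobulin-family adhesion protein, and lies on chromosome 16 from 52248996 to 52454074. It had 0.832 CPM in replicate 1 against 23.0 CPM in replicate 2, about 36 and 970 reads, with 95% Poisson intervals from 0.583 to 1.15 CPM and from 21.6 to 24.5 CPM that cover counting error only. The intervals lie far apart, so counting error does not cover the difference. Per kb, *Alcam* was below *Eng* in replicate 1 by a log2 ratio of -7.03 and slightly above it in replicate 2 by 0.22, so the pair used for cartilage progenitors was dominated by *Eng* in one library and nearly balanced in the other. Its binding partner *Cd6*, a gene of lymphocytes, is not listed.

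*Cd200*, the gene of a membrane glycoprotein that restrains myeloid cells through its receptor, had 2.01 CPM in replicate 1 against 5.08 CPM in replicate 2. It was detected in both, on about 87 and 214 reads. *Cd200r1*, the receptor gene, had 0.223 and 0.662 CPM. *Pdpn*, which encodes a mucin-like protein that binds ezrin-family linkers to actin, had 1.94 and 1.19 CPM, about 84 and 50 reads, and occurred at a low level in both libraries. The linker genes themselves were higher, with *Msn* at 253 and 498 CPM and *Rdx* at 91.0 and 127 CPM, while *Ezr* had 4.48 and 3.61 CPM. *Clec1b*, the platelet receptor for podoplanin, is not listed.

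*Mcam*, an adhesion protein of pericytes and endothelium, had 3.49 CPM in replicate 1 against 3.08 CPM in replicate 2, with an SD of 0.286 CPM around 3.29 CPM (n = 2). The libraries differed little in this gene. *Lama4*, a chain of the laminin that it binds, had 22.6 and 41.5 CPM. Of 6 listed pericyte markers, 4 reached 3 reads in both libraries and 2 exceeded 10 CPM, with sums of 592 and 715 CPM. Nearly all of that sum was *Cspg4* (NG2), at 538 and 619 CPM, which chondrocytes also express, and *Acta2*, at 53.4 and 93.0 CPM. *Rgs5* had 0.116 and 0.641 CPM, *Des* had 0.208 and 0.0474 CPM, and *Abcc9* had 0.0231 and 0.142 CPM. The part of pericytes in the *Mcam* level was not tested.

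*Ly6a*, the gene of the lipid-anchored antigen Sca-1, had 6.73 CPM in replicate 1 against 8.31 CPM in replicate 2, with an SD of 1.12 CPM around 7.52 CPM (n = 2). Per kb of its short transcript it had 5.59 and 6.90 CPM, below *Nt5e* and *Eng* by mean but above *Eng* in replicate 2. Its level is uncertain, since 91 of the 906 windows of 50 bases in its longest coding transcript also occur in other genes. Of these windows, 40 occur in *Ly6c1* and 31 in *Ly6i*, which is not listed. Such reads could be divided among genes. *Ly6c1* had 15.1 and 5.61 CPM, and *Ly6e* had 10.6 and 15.6 CPM. The other listed members of the Ly6 family, *Ly6c2*, *Ly6d*, *Ly6g* and *Gpihbp1*, reached at most 0.0777 CPM. *Pdgfra*, the partner of Sca-1 in sorting, had 2.03 and 2.71 CPM, whereas *Pdgfrb* had 140 and 152 CPM.

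*Thy1* encodes a small lipid-anchored immunoglobulin-family protein of fibroblasts, neurons and T cells. It lies on chromosome 9 from 44043384 to 44048579. It had 0.208 CPM in replicate 1, about 9 reads, and was listed at 0 in replicate 2, where 3 reads would be 0.0712 CPM. It was therefore detected at a trace level in one library and not in the other. Its value in replicate 1 was 2.92 times the 3-read level of replicate 2, a ratio that leaves out counting error. The Poisson intervals ran from 0.0951 to 0.395 CPM in replicate 1 and from 0 to 0.0875 CPM in replicate 2. They lay close to each other, so the size of the difference is uncertain. *Cd200* exceeded *Thy1* per kb by a log2 ratio of 3.12 in replicate 1. In replicate 2 it was 64.3-fold above *Thy1* per kb with *Thy1* set at 3 reads, again without counting error. The genes that build and attach the lipid anchor shared by CD73, Sca-1 and THY1 were all present, 9 of 9 at 1 CPM or more in both libraries, from *Pgap1* at 1.87 and 1.49 CPM to *Pigt* at 87.6 and 85.8 CPM.

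*Lepr*, the leptin receptor gene, spans 101717404 to 101815352 on chromosome 4. It was at 0.0231 CPM in replicate 1, the value of 1 read, and 0.119 CPM in replicate 2, about 5 reads. Replicate 2 exceeded replicate 1 by a ratio of 5.13, but the exact 95% counting interval ran from 0.574 to 243, so no difference could be seen at this depth. *Leprot*, a neighbouring gene with a related name, had 50.4 and 75.7 CPM and is a different protein. The downstream signalling genes were present, with *Jak2* at 31.7 and 46.5 CPM and *Stat3* at 134 and 128 CPM, and *Lep* itself is not listed. Of 8 marrow stroma markers, 6 reached 3 reads in both libraries and 2 reached 10 CPM, namely *Foxc1* at 66.4 and 69.7 CPM and *Grem1* at 57.3 and 25.5 CPM. *Cxcl12*, which defines this stroma, had 0.254 and 0.356 CPM, *Kitl* had 0.0231 and 1.16 CPM, and *Adipoq* was listed at 0 in both.

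*Ngfr* encodes the low-affinity neurotrophin receptor and lies on chromosome 11 from 95568818 to 95587735. It was listed at 0 in both libraries, as were 3421 genes (14.5% of all), and 3 reads would have given 0.0693 and 0.0712 CPM. The 8 surface genes of nearly all cells that were examined, such as *B2m* and *Cd63*, all exceeded 10 CPM in both libraries. They were chosen as widely expressed genes, so their levels do not bear on the 0 of *Ngfr*, whose cause was not tested. Other genes of neurotrophin signalling were present at uneven levels. *Ntrk2* (TrkB) had 151 CPM in replicate 1 and 25.7 CPM in the other library. *Bdnf*, a ligand of TrkB, had 1.85 and 8.90 CPM, in the opposite direction. *Ntf3*, which encodes neurotrophin-3, had 2.08 and 0.119 CPM, and *Ntrk3* (TrkC), its main receptor, had 4.62 and 4.82 CPM. *Sort1*, which encodes the sorting receptor sortilin, had 39.7 and 38.2 CPM. Of 4 listed glial markers, 3 reached 3 reads in both libraries, *S100b* at 486 and 271 CPM being one that chondrocytes share, while *Sox10* had 0.0693 and 0 CPM.

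**Figure D2:**
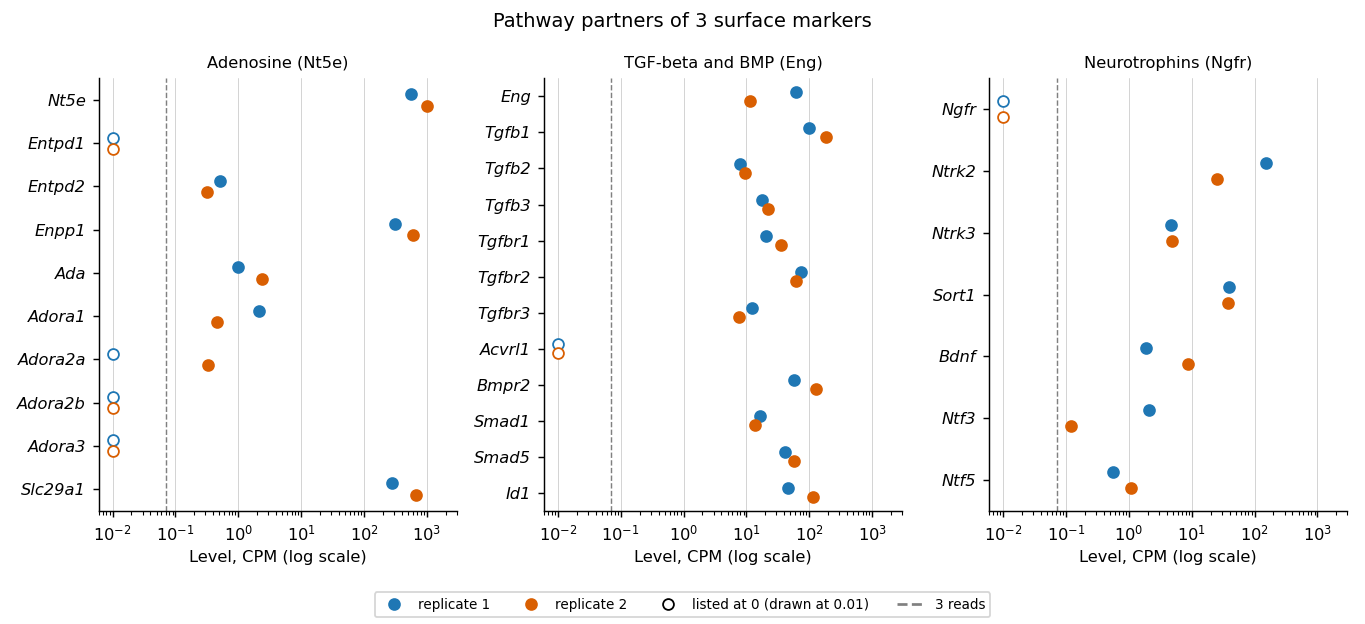
Levels in CPM (log scale) of *Nt5e*, *Eng* and *Ngfr*, each at the top of its panel, and of the ligands, enzymes, receptors and targets listed with them, with 1 point per library and open points for genes listed at 0. *Enpp1* and *Slc29a1* lie between 277 and 674 CPM beside *Nt5e*, *Acvrl1* is open beside *Eng*, and *Ngfr* is open while the points of *Ntrk2* and *Ntf3* lie far apart.

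By mean CPM per kb the order of the markers was *Nt5e*, *Eng*, *Ly6a*, *Alcam*, *Cd200*, *Mcam*, *Pdpn*, *Thy1*, *Lepr* and *Ngfr*. *Nt5e* was first in both libraries, and *Ly6a* stood above *Alcam*, *Cd200*, *Mcam* and *Pdpn* in both. *Eng* stood above *Ly6a* and *Alcam* in replicate 1 and below both in replicate 2. *Alcam*, at 0.117 CPM per kb in replicate 1, was below *Cd200*, *Mcam* and *Pdpn* there, and at 3.23 CPM per kb in replicate 2 it was above them. *Cd200*, *Mcam* and *Pdpn*, with means of 1.07, 0.981 and 0.861 CPM per kb, had opposite orders in the libraries, and *Thy1* and *Lepr* also swapped at trace levels. The swap of *Pdpn* and *Mcam* depended on the length used. By the longest coding transcript, the log2 ratio of *Pdpn* to *Mcam* was -0.13 in replicate 1 and -0.66 in replicate 2. For the genes that swapped, the order by mean is not beyond the spread.

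The genes of each sort gate were then set side by side. Of the stromal triad, *Nt5e* and *Eng* exceeded 10 CPM in both libraries and *Thy1* did not exceed 0.208 CPM. Of the genes required by the mouse skeletal stem cell gate, *Itgav* had 88.0 and 360 CPM and *Cd200* had 2.01 and 5.08 CPM. Of those that the gate leaves out, *Tek* was at 0, *Enpep* had 0.0924 and 0.214 CPM and *Thy1* was at a trace, but *Eng* was present. *Itgav* exceeded *Enpep* per kb by a log2 ratio of 9.12 ± 0.58 (SD, n = 2). *Cd200* was below *Eng* per kb by log2 ratios of -4.65 in replicate 1 and -0.86 in replicate 2, and their mean of -2.76 was about as large as the SD of 2.68. For the human gate, *Nt5e* and *Cd164*, at 182 and 227 CPM, were high, and *Pdpn* and *Mcam*, the required and the excluded marker, were alike in level. Their log2 ratio per kb was 0.04 in replicate 1 and -0.50 in replicate 2, a mean of -0.23 within its SD of 0.38. The sort against CD31, CD45 and Ter119 was made before culture, and afterwards *Ptprc* (CD45) had 0.0231 and 0.0474 CPM.

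**Figure D3:**
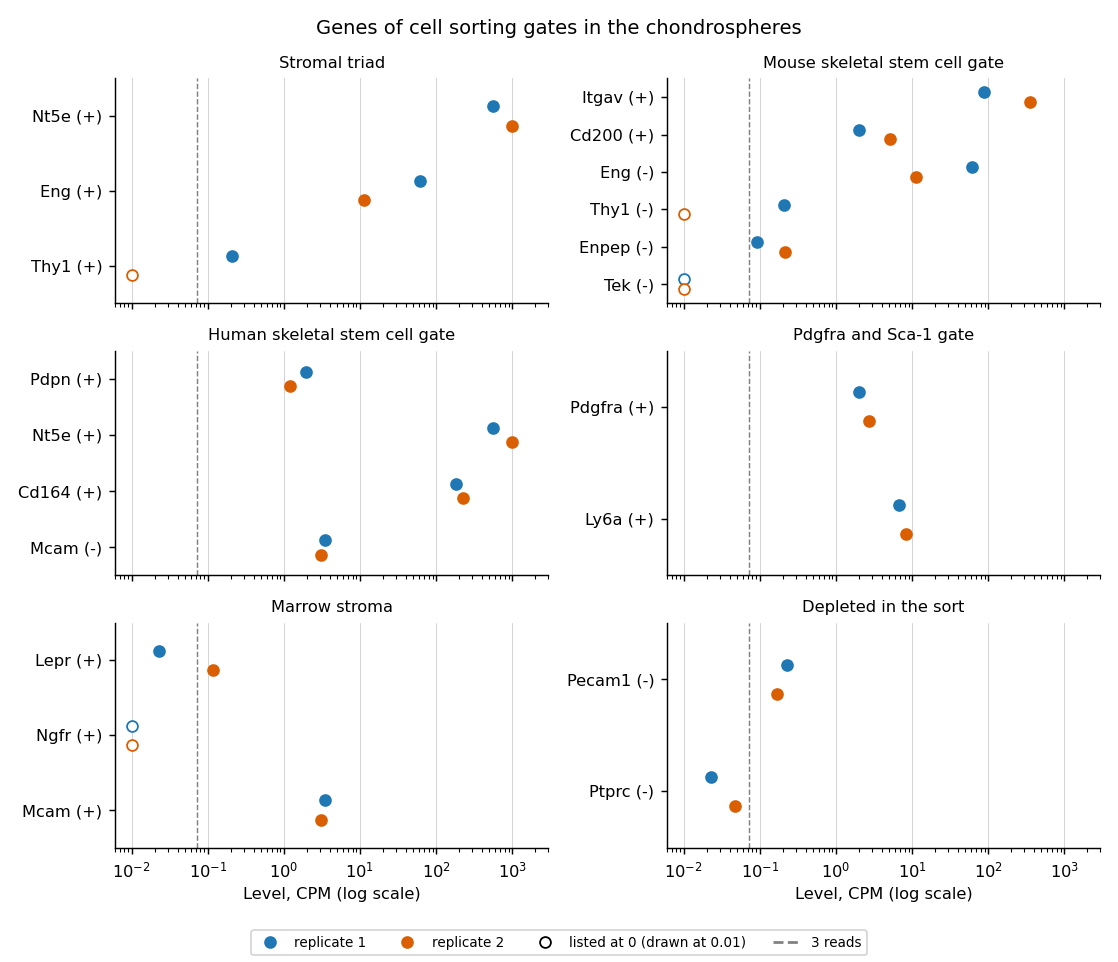
Levels in CPM (log scale) of the genes of 6 sort gates, with a plus for genes a gate requires and a minus for genes it leaves out, 1 point per library and open points for genes listed at 0. *Nt5e*, *Itgav* and *Cd164* lie high, *Eng* lies above 10 CPM although the mouse gate leaves it out, and *Pecam1* and *Ptprc*, genes of antigens depleted in the sort, lie at or below 0.231 CPM.

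Of 15 other surface genes used on skeletal progenitors, 14 reached 3 reads in both libraries and 9 reached 10 CPM in both. The integrin chains *Itgb1*, at 408 and 760 CPM, and *Itga5*, at 107 and 266 CPM, were among the high ones. *Cd44*, the hyaluronan receptor, had 14.7 CPM in replicate 1 against 126 CPM in replicate 2, and *Vcam1* had 35.6 and 14.9 CPM. *Cd34* had 0.162 and 0.973 CPM. Of 7 fibroblast surface genes, a list that holds *Thy1*, 4 reached 3 reads in both libraries and 2 reached 10 CPM in both. These 2 were *Pdgfrb*, the highest, and *Fap*, at 14.3 CPM in replicate 1 and 27.4 CPM in replicate 2. *Dpp4* and *Pi16* were listed at 0.

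The libraries were then compared with each other, as 1 library each and without a test. The log2 ratio of replicate 2 to replicate 1 was taken after adding 0.1 CPM to each value, a scale that understates differences of low genes. It was centred on 0.30, its median over the 12631 genes with a mean of 1 CPM or more, to remove a shift common to most genes. The cause of that shift was not tested. The filter left 7 markers, without *Thy1*, *Lepr* and *Ngfr*. More than 2-fold apart were 2 of the 7, *Alcam* and *Eng*, against 13.5% of all genes tested. *Alcam* was 20.1-fold higher in replicate 2 (log2 4.33), in the direction of 7.43% of all genes, and only 33 genes tested, *Alcam* included, differed as far that way. *Eng* was 6.72-fold lower in replicate 2 (log2 -2.75), in the direction of 6.06% of all genes, with 70 genes at or beyond its value. *Cd200* and *Pdpn* lay just inside the limit, with log2 ratios of 0.99 and -0.97. The values of *Nt5e* and *Mcam* were 0.51 and -0.48, within the SD of 0.83 that these ratios had across all genes tested, as was *Ly6a* at -0.0037. The markers therefore did not shift together, and the median of the 7 was that of *Ly6a*.

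**Figure D4:**
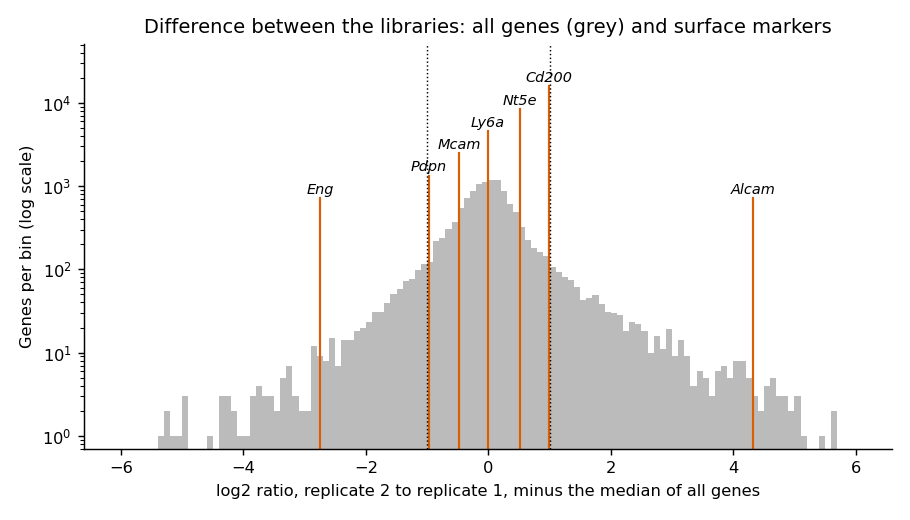
Number of genes (log scale) by log2 ratio of replicate 2 to replicate 1 minus the median of all 12631 genes tested, with orange lines for the 7 surface markers tested and dotted lines at 2-fold. *Eng* lies at -2.75 and *Alcam* at 4.33, in the tails, and the other 5 markers lie between the dotted lines.

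Other genes of the lists also differed between the libraries, and their part in the differences of *Alcam* and *Eng* was not tested. Of all genes tested, 6.06% were more than 2-fold lower in replicate 2 relative to the median, and 7.43% were more than 2-fold higher. By the centring, the median of all genes tested was 0. The chondrocyte label was checked against 8 markers, which all exceeded 10 CPM in both libraries, and 7 of the 8 had a centred log2 ratio below 0, with a median of -0.67. More than 2-fold lower were *Col9a1*, at 1881 and 1087 CPM, and *Matn3*, which had 741 CPM in replicate 1 against 53.1 CPM in replicate 2. All 7 osteoblast markers reached 3 reads in both, with sums of 1172 and 638 CPM that were mostly *Col1a1*. Relative to the median, *Col1a1* was more than 2-fold lower in replicate 2, and 3 of the 6 genes tested were more than 2-fold higher. These were *Dmp1* at 0.116 and 40.4 CPM, *Sp7* at 1.96 and 6.81 CPM and *Alpl* at 0.462 and 1.92 CPM. *Ibsp* and *Bglap2* lay within 2-fold, with centred log2 ratios of 0.22 and 0.049. Of 7 listed leukocyte markers, 2 reached 3 reads in both libraries, *Laptm5* at 5.73 and 0.807 CPM and *Cd68* at 2.56 and 2.40 CPM. The sums of the leukocyte list were 8.36 and 3.47 CPM. Beside *Alcam*, *Cd44*, *L1cam*, *Itgav*, *Lamb1*, *Lgals1* and *Bdnf* were also more than 2-fold higher in replicate 2 relative to the median. *Itga5* and *Cd9* lay at that limit, past it by the median and within it by the upper quartile. On the side of *Eng*, *Ntrk2*, *Vcam1*, *Ly6c1*, *Adora1* and *Ntf3* were more than 2-fold lower.

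The depth behind these values was estimated from the steps between low values, which put the reads on genes at about 43300000 for replicate 1 and 42100000 for replicate 2. At that depth, 10 CPM equals some 433 and 421 reads. Among values of up to 20 reads, 71.9% (replicate 1) and 71.2% (replicate 2) came within 0.1 of a whole read, so read numbers are approximate. PCR copies are not separated from molecules, and limits and intervals cover counting error only. The 10 highest genes held 43.4% and 34.7% of the totals.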

How the data were processed

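The authors aligned single-end reads of 50 bases from poly(A) RNA, made into stranded libraries, to GRCm38 with STAR 2.7.3a, and assigned them to GENCODE M25 genes with the E/M method of Partek Flow 10.0.21.0801, which can divide a read among genes. They deposited counts-per-million (CPM) values, 1 column per library, and 0.0001 had been added to each value, which was subtracted here.

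Means, SDs, log2 ratios, reads implied by the step of the low values and exact Poisson intervals were computed from the CPM with Python 3.11.15, numpy 2.4.6, pandas 2.3.3 and scipy 1.17.1, and plots were drawn with matplotlib 3.10.9. The libraries are of 1 condition, so no test was made. Positions, overlaps and exonic lengths came from GENCODE M21 on the same build, in which 22967 gene names (97.2%) matched 1 gene. The shared 50-base windows were counted in its transcripts. The fold between libraries was tested on simulated data. The markers and gene lists were chosen with earlier results of these data known, and the genes named are the markers, the genes of those lists and genes that overlap or copy a marker. Some genes of the lists are not reported here. Alternatives covered detection levels, scaling, centring, pseudocount, filters, gene length and leaving out each library.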

Additional observations from a re-analysis of the deposited data

How the results depend on the processing

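For 26 results, 119 values were recomputed with 1 choice changed, of which 106 moved by less than a set limit, 11 moved by more and 2 reversed. The limit was the SD of the 2 libraries for a level or a ratio of 2 genes, and 1.5 times for a count. For a log2 ratio between the libraries it was 0.59, the spread of 1 library over all genes. *Cd200* to *Thy1* had no SD, so any change counted as a move. Leaving 1 of 2 libraries out moves a mean by less than 1 SD by arithmetic. Those mean levels and mean ratios of 2 genes therefore could not pass the limit, though a ratio could turn sign. The limit was also wide where the SD was near the mean or above it. *Eng* rose from a mean of 36.4 to 62.6 CPM without the 10 highest genes and still fell within its limit of 35.6 CPM. The 106 values are therefore not a measure of stability. The number of markers at 3 reads or more in both libraries, 7, was 8 with either library left out. The number at 10 CPM in both was 2, and 1 at 20 CPM, and with 1 library left out it was 2 or 3. The number of markers more than 2-fold apart was 2, and 4 with a pseudocount of 0.01 CPM, which added *Cd200* and *Pdpn*. Without centring, or centred on a trimmed mean of log ratios, *Cd200* was added, and without the filter on low values *Thy1* was. *Eng* and *Alcam* were past 2-fold in the same direction under each setting, and *Alcam* had a log2 ratio of 3.43 with a pseudocount of 1 CPM. Per-million totals without the 10 highest genes raised the mean of each of the 9 markers with reads, to 1254 CPM for *Nt5e*.

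Of the log2 ratios per kb, 2 turned sign with 1 library left out. That of *Alcam* to *Eng*, with a mean of -3.40, ranged from -7.03 to 0.22, and that of *Pdpn* to *Mcam*, with a mean of -0.23, ranged from -0.50 to 0.037. *Pdpn* to *Mcam* was -1.11 without division by length, and *Itgav* to *Enpep* was 10.3. *Cd200* to *Thy1* was 3.12 in replicate 1, 2.84 with the longest coding transcript and 3.27 without division by length. It had no value without replicate 1, because *Thy1* was listed at 0 in replicate 2. No paired analysis was possible because the libraries are of 1 group.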
